A study of Arabidopsis thaliana with 2 samples.

Results

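The genes described here act in auxin conjugation, auxin synthesis and the early response to auxin. They are the 7 genes whose platform annotation carries the symbols GH3.1, GH3.3, WES1, IAA29, YUC2, YUC4 and YUC6, of 13333 genes named on the array. Each of the 7 had 1 probe set named with its symbol alone, and none of these probe sets carried the suffix of a probe set that several genes can share. Probe sets with several symbols or with no name were left out of this count. WES1 is the gene also called GH3.5. The members were chosen by symbol, with earlier results of these data known.

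The shoots (all aerial parts) of Arabidopsis thaliana seedlings were sampled at an age of 14 days. The seedlings were GFP-TIE1-15, a line that carries a GFP-TIE1 transgene, and wild-type Columbia-0. Both genotypes grew on half-strength Murashige and Skoog medium in long days, 16 h light and 8 h dark, at 22 ± 2 °C, after 3 days in the cold at 4 °C. Each genotype had 1 Affymetrix array, so no difference below has a replicate check, a test or an error, and the line, the sampled plants and the array cannot be told apart. GFP-TIE1-15 is 1 transgenic line, and the sources used here do not name the promoter that drives its transgene. TIE1 itself was not analysed here, so the transgene was not checked on the arrays.

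Auxin is made in leaves mainly from tryptophan, by aminotransferases and then by the YUC flavin monooxygenases, which convert indole-3-pyruvate to indole-3-acetic acid. Auxin frees auxin response factors from the Aux/IAA repressors, and genes of the GH3, Aux/IAA and SAUR families are among its early targets. GH3 enzymes of the group that holds GH3.1, GH3.3 and WES1 join indole-3-acetic acid to amino acids and so lower the free hormone. TIE1 is known to bring TOPLESS corepressors to TCP transcription factors of leaf development, and many Aux/IAA proteins use the same corepressors. The comparison addresses how transcripts of this pathway stood in shoots that carry the transgene.

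The GH3 genes GH3.3 and WES1 had lower signals in GFP-TIE1-15 than in wild type, and they were the only members bright enough to be counted as measured. The other 5 members were dim on both arrays. A gene was counted as measured if its brighter array reached a signal of 200.02, which is 40% of the trimmed mean signal of 500.05. Of 22746 probe sets other than controls, 11308 were measured, and the median signal was 172.55 on the GFP-TIE1-15 array and 168.85 on the wild-type array. Log2 ratios are those of GFP-TIE1-15 over wild type on the log2(signal + 50) scale, which understates the difference of dim genes. A signal also depends on the probes of its gene, so signals of different genes are not set against each other as transcript levels.

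**Figure D1:**
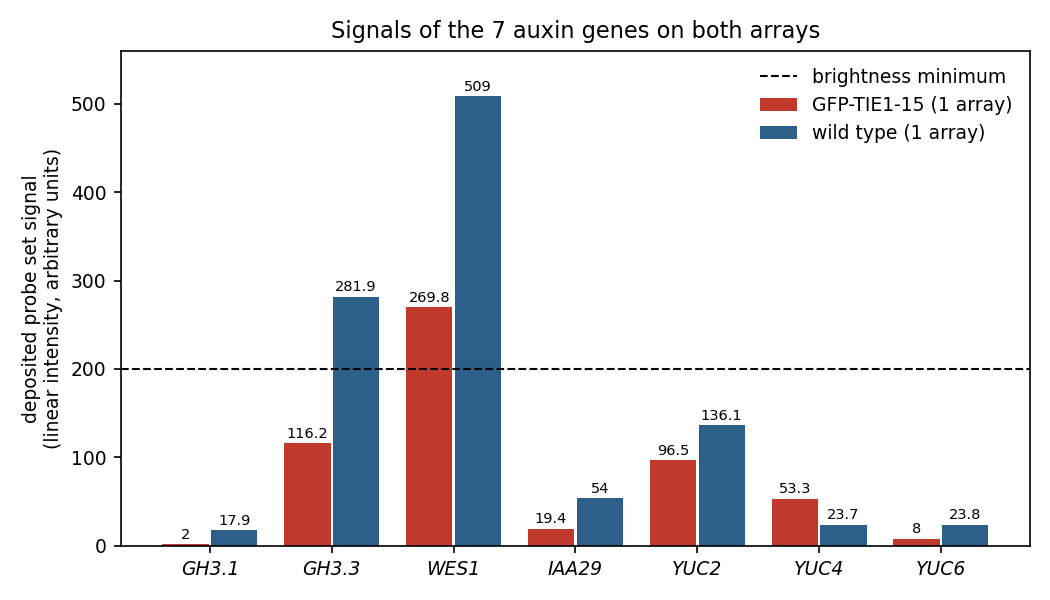
Deposited signals (linear intensity) of the 7 genes, with GFP-TIE1-15 on the left and wild type on the right of each pair, 1 array each, and the brightness minimum of 200.02 as a dashed line. WES1 is above the minimum on both arrays, GH3.3 in wild type only, and the other 5 genes on neither array.

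GH3.3 (AT2G23170), an indole-3-acetic acid amido synthetase that auxin induces, had a signal of 116.2 in GFP-TIE1-15 and 281.9 in wild type. The wild-type array was the brighter, and it alone reached the brightness minimum, so that filter fixed the sign of the ratio. The log2 ratio was -0.998, a fold of 1.997 lower, and the plain ratio of the deposited signals was 0.412. GH3.3 therefore lay at the edge of the size rule used here, which asks for 1 log2 unit up or down. It missed that rule on the scale used here, and it passed after quantile normalization (-1.01), division by each array's median (-1.02), removal of the loess trend (-1.035) or a pseudocount of 1 (-1.27). A pseudocount of 125.0 put it at -0.75.

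WES1 (AT4G27260), which conjugates indole-3-acetic acid and is known for the dwarf plants its overexpression gives, had a signal of 269.8 in GFP-TIE1-15 and 509 in wild type. Both arrays reached the minimum, so here the brightness filter did not fix the sign. The log2 ratio was -0.81, a fold of 1.75 lower, and the plain ratio of the signals was 0.53. WES1 did not pass the 2-fold rule under any scaling or pseudocount tried, and its log2 ratio lay between -0.92 and -0.68 in all of them.

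None of the 2 measured members was at least 2-fold lower or higher on the scale used here. Over all 11308 measured probe sets, 2.39% were at least 2-fold lower and 1.20% at least 2-fold higher. At a rule of 1.5-fold both measured members were lower, against a background of 6.86% of measured probe sets, with 6.78% higher. The brightness minimum fixed the sign of GH3.3, so of the 2 only WES1 could have been higher. By the plain ratio of the signals, an alternative chosen after the data were seen, GH3.3 was at least 2-fold lower and WES1 was not, against a background of 3.09% lower and 1.87% higher. With 2 measured members these shares are a description and say nothing about the members as a group.

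The place of both genes among all measured probe sets was low, but others lay lower. A ratio at or below that of GH3.3 was found in 272 measured probe sets, or 2.41%. A ratio at or below that of WES1 was found in 422, or 3.73%, and in 2.46% of the 10151 probe sets that reached the minimum on both arrays. The brightness minimum weighs on the place of GH3.3. Of the 561 probe sets that reached it in wild type only, 22.5% were at least 2-fold lower, and their median log2 ratio was -0.52. The spread of log2 ratios among the 500 measured probe sets nearest in signal, as a scaled median absolute deviation, was 0.66 at GH3.3 and 0.305 at WES1. Over all probe sets, dim ones included, the spread at GH3.3 was 0.36. This spread is among genes on these arrays and does not measure the spread between plants.

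**Figure D2:**
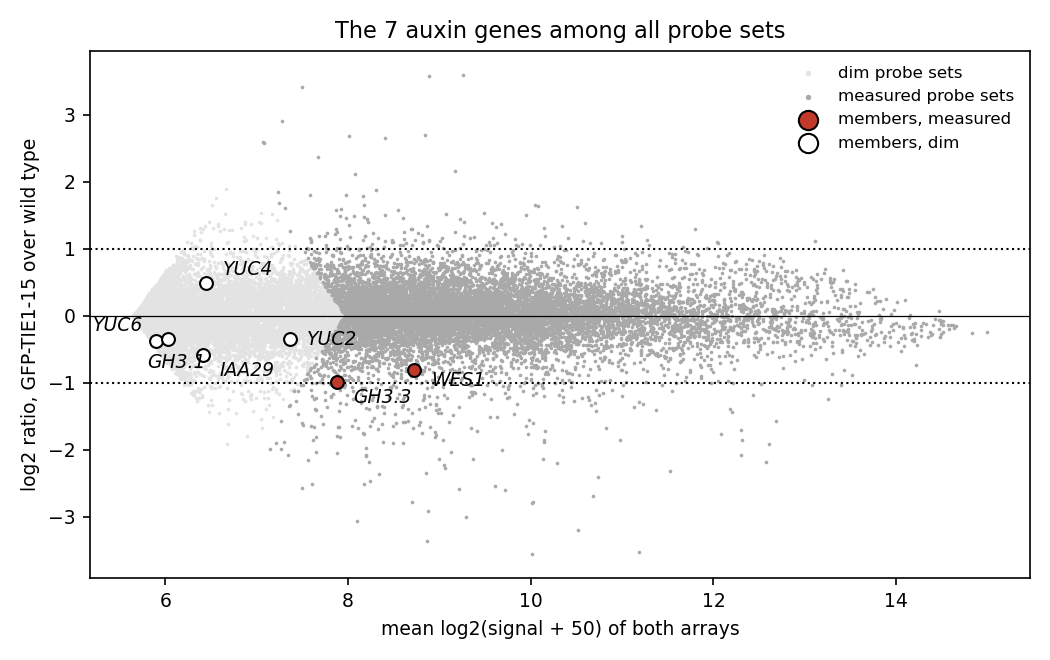
Log2 ratios (GFP-TIE1-15 over wild type) against the mean log2(signal + 50) of both arrays, for all probe sets other than controls (measured dark grey, dim light grey) and the 7 genes (measured filled, dim open), with dotted lines at 2-fold. GH3.3 lies at the lower 2-fold line and WES1 above it at -0.81, and the 5 dim genes lie between -0.58 and 0.49 within the cloud of dim probe sets.

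GH3.1 (AT2G14960), the third conjugating enzyme among the members, was dim, with a signal of 2 in GFP-TIE1-15 and 17.9 in wild type. Both values lay below the lower quartile of their arrays, which was 24.5 in GFP-TIE1-15 and 26.42 in wild type. Its log2 ratio was -0.385, and 22.1% of the 11438 dim probe sets lay at least as far from 0. The signals differed by 15.9 units.

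IAA29 (AT4G32280), an Aux/IAA gene known to respond to shade and warmth as well as to auxin, was dim as well. It had a signal of 19.4 in GFP-TIE1-15 and 54 in wild type, and a log2 ratio of -0.58. Of the dim probe sets, 8.5% lay as far from 0 or further.

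The 3 YUC genes did not differ in 1 direction, and all 3 were dim. YUC2 (AT4G13260) had a signal of 96.5 in GFP-TIE1-15 and 136.1 in wild type, a log2 ratio of -0.345. YUC6 (AT5G25620) had a signal of 8 in GFP-TIE1-15 and 23.8 in wild type, a log2 ratio of -0.35. YUC4 (AT5G11320), known for its expression in young leaf primordia and at leaf tips, was the only member with the higher signal in GFP-TIE1-15, at 53.3 against 23.7 in wild type, a log2 ratio of 0.49. Of the dim probe sets, 26.4%, 26.1% and 13.8% lay at least as far from 0 as YUC2, YUC6 and YUC4. The middle 95% of dim probe sets ran from -0.71 to 0.67, and all 5 dim members lay inside it.

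The choice of pseudocount moved the log2 ratios of the dim members. At a pseudocount of 1, GH3.1 was at -2.655, IAA29 at -1.43, YUC6 at -1.46 and YUC4 at 1.14, while YUC2 was at -0.49. A pseudocount cannot change a sign, and the signs were the same under the 3 other scalings. Behind the large ratios of GH3.1, IAA29, YUC4 and YUC6 stood differences of 15.8 to 34.6 units of signal.

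**Figure D3:**
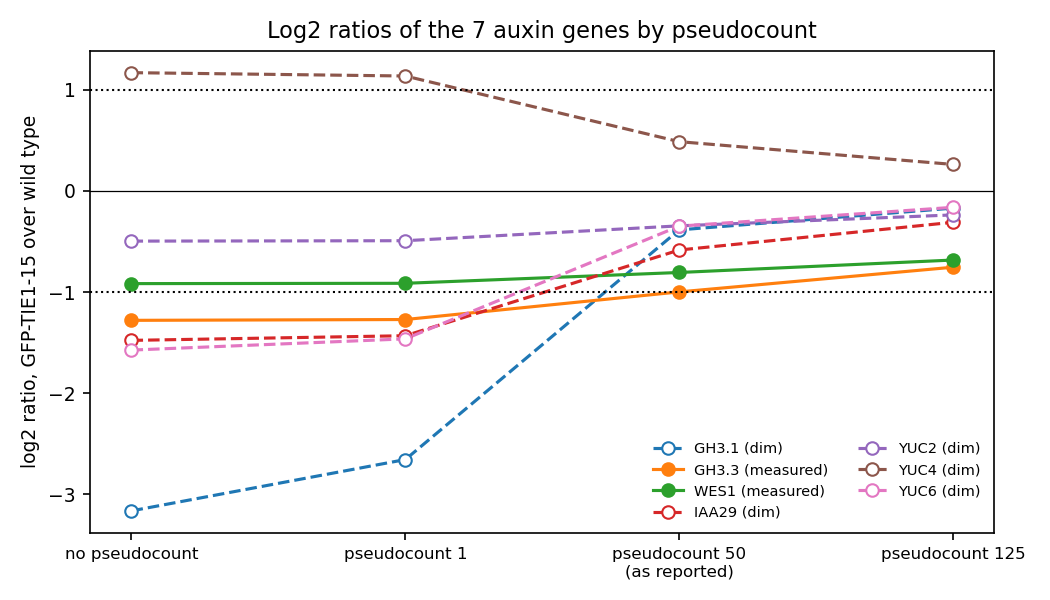
Log2 ratios (GFP-TIE1-15 over wild type) of the 7 genes with no pseudocount and with pseudocounts of 1, 50 and 125.0 (lines join 1 gene, solid and filled where measured, dashed and open where dim, dotted lines at 2-fold). GH3.3 and WES1 stay between -1.28 and -0.68, while GH3.1 runs from -3.16 with no pseudocount to -0.17 with the largest.

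The rest of the pathway was sparsely covered by named probe sets. On the array 8730 probe sets were unnamed here, so a listed locus without a named one may still be on it. Of 162 loci in 11 auxin lists, members included, a named probe set was found for 32, and 8 were measured. Among these 8, 0 were 2-fold apart in either direction on the scale used here. The shares over all 11308 measured probe sets were 2.39% lower and 1.20% higher, and 0 of 8 lies near them. The brightness minimum fixed the sign of 2 of them, GH3.3 and AT1G14130, which reached it on 1 array only. The other 6, which include the member WES1, had a median log2 ratio of -0.34 with 5 below 0. The 10151 probe sets that reached the minimum on both arrays had a median of 0.01 with 48.5% below 0. With both measured members left out and AT1G14130 kept, 6 measured loci had a median of -0.24 with 4 below 0. Over all 32 loci, with no brightness minimum, the median was -0.15, against -0.001 over all 22746 probe sets other than controls. No locus of the auxin receptors, of the auxin response factors or of the indole-derived precursor genes had a named probe set. With so few genes, the medians describe the genes named here and not the pathway.

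The 19 GH3 loci were listed by family, and whether each acts on auxin was not checked here. A named probe set was found for 11 of them, and 3 were measured. The third, GH3.17 (AT1G28130), which conjugates indole-3-acetic acid as well, had a signal of 208.7 in GFP-TIE1-15 and 266.5 in wild type, a log2 ratio of -0.29. Of the 3, GH3.3 was measured through wild type only, and WES1 and GH3.17, which reached the minimum on both arrays, lay below 0. None of the 3 passed the 2-fold rule on the scale used here, against 2.39% lower and 1.20% higher over all measured probe sets. GH3.3 passed it in other settings, as given above. The 8 dim GH3 loci, GH3.1 among them, had signals of at most 100.9 and log2 ratios between -0.74 and 0.41, with 5 below 0. GH3.9 (AT2G47750) was the highest of them, at 100.9 in GFP-TIE1-15 and 63.2 in wild type.

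Among the genes listed for other routes of auxin removal, only UGT74D1 reached the brightness minimum on both arrays. A shared direction of these routes was therefore not tested. UGT74D1 (AT2G31750), a glucosyltransferase that acts on auxin-type acids, had a signal of 462.7 in GFP-TIE1-15 and 675.2 in wild type, a log2 ratio of -0.50. AT1G14130, listed under auxin oxidation, had 251.5 in GFP-TIE1-15 and 162 in wild type, a log2 ratio of 0.51, and reached the brightness minimum in GFP-TIE1-15 only, which fixed its sign. UGT84B1 (AT2G23260) and AT1G14120 were dim, with signals of at most 34.6.

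Upstream of the YUC genes, AT2G04400, listed under tryptophan synthesis, had a signal of 1177 in GFP-TIE1-15 and 1565 in wild type, a log2 ratio of -0.40. In the list of TAA and YUC genes, 4 of 14 had a named probe set, the 3 members and YUC11, and all were dim. The transport list had only WAG2 (AT3G14370), a kinase that acts on PIN auxin carriers, at 36 in GFP-TIE1-15 and 50 in wild type.

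Among response genes, IAA18 (AT1G51950) was the 1 measured Aux/IAA gene of 7 with a named probe set. It had a signal of 702.2 in GFP-TIE1-15 and 808.5 in wild type, a log2 ratio of -0.19. The 6 dim Aux/IAA genes, IAA29 among them, had signals of at most 54 and lay between -0.58 and 0.18. HAT2 (AT5G47370), a homeodomain-leucine zipper gene induced early by auxin, had 399.5 in GFP-TIE1-15 and 388.8 in wild type, a log2 ratio of 0.03. SAUR10 (AT2G18010) was dim, with 11.9 in GFP-TIE1-15 and 10.9 in wild type, and so were LBD16 (AT2G42430) and LBD29 (AT3G58190).

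**Figure D4:**
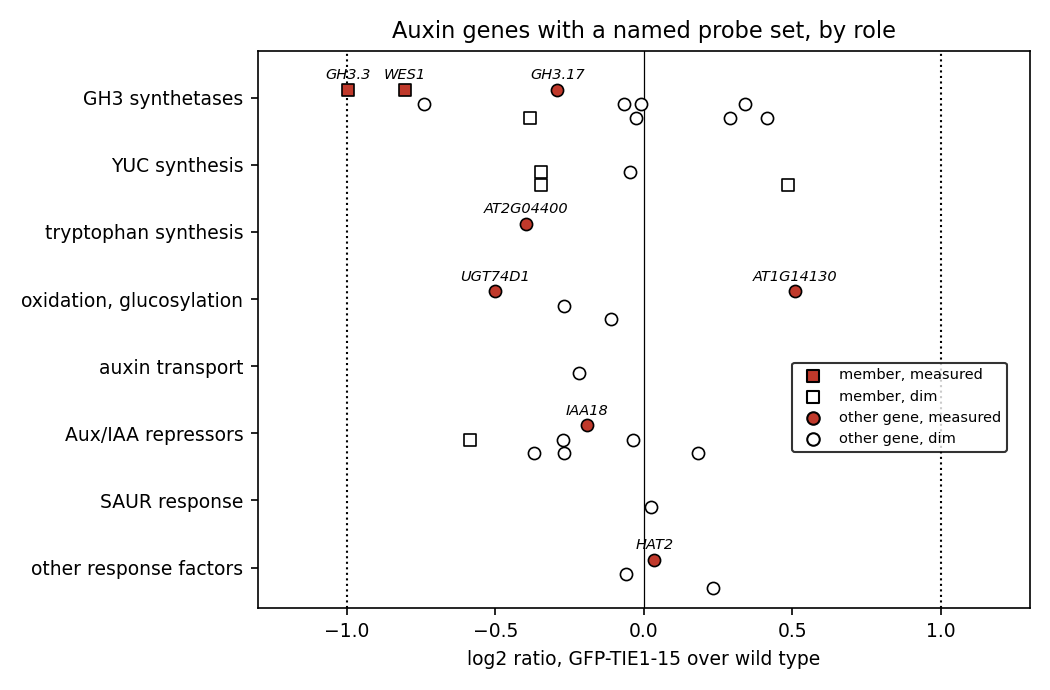
Log2 ratios (GFP-TIE1-15 over wild type) of the 32 auxin loci with a named probe set, in rows by role (squares are the 7 members, circles other genes, filled where measured and open where dim, dotted lines at 2-fold). The measured GH3 genes lie between -0.998 and -0.29. The other measured genes are UGT74D1 at -0.50, AT2G04400 at -0.40, IAA18 at -0.19, HAT2 at 0.035 and AT1G14130 at 0.51. The brightness minimum fixed the signs of GH3.3 and AT1G14130, and no gene lies beyond the 2-fold lines.

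Genes with the most similar pair of signals were sought among 5933 measured probe sets of named genes, by distance over the 2 arrays on the log2 scale. Nearest to GH3.3 were AT1G73040, with 110.4 in GFP-TIE1-15 and 287 in wild type, and NDB2 (AT4G05020), with 115.4 in GFP-TIE1-15 and 296 in wild type. Nearest to WES1 were AT1G49050, with 272.4 in GFP-TIE1-15 and 507.8 in wild type, and AT5G57580, with 266.7 in GFP-TIE1-15 and 511.1 in wild type. Likeness over 2 arrays rests on 2 values per gene.

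Markers of the tissue were checked on both arrays. The leaf genes LHCB4.1 (AT5G01530), of the light-harvesting antenna, and RCA (AT2G39730), Rubisco activase, were bright, with log2 ratios of -0.33 and -0.35, and were the only 2 of 10 listed leaf markers with a named probe set. A named probe set was found for 3 of the 15 root markers. EXPA7 and EXPA18, genes of root hairs, were dim, with signals of at most 62.3. PYK10 (AT3G09260), a glucosidase abundant in roots and also present in young shoots, had 5954 in GFP-TIE1-15 and 6746 in wild type. No root marker was listed at 0, and their part in the result was not tested. The 4 reference genes with a named probe set lay between -0.13 and 0.26, with a median of 0.01. In whole shoots, fewer cells that express a gene and less RNA per cell cannot be told apart.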

How the data were processed

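The table held 1 column of probe set signals for each array, on a linear intensity scale, as deposited. Per the submitters' processing notes, the authors used GCOS 1.0 and MAS5. The sources used here do not state the scaling target. Both arrays had a mean signal of 500.05 once 2% of the values at each end were removed, and the deposited intensity values were kept at that scale. No detection calls were used here. Depth does not apply to arrays, and their number limits the precision.

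Of 22810 probe sets, 64 were controls. The platform annotation gave 13513 probe sets 1 symbol and 503 several, and 8730 were unnamed here. Of those with 1 symbol, 13484 matched a locus of the TAIR10.1 RefSeq gene table, used for names and for the order of genes only. No sequences were used.

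The pseudocount was 10% of the trimmed mean. Members and auxin lists were chosen with earlier results of these data known. All members were described, with every listed auxin gene that had a named probe set and, for each measured member, the 2 genes of most similar signals. Scripts were tested on simulated data, with changes placed only in probe sets brighter than any member. Recovery of changes in the signal range of the members was not tested. The software was Python 3.11.15 with pandas 2.3.3, numpy 2.4.6, statsmodels 0.14.6 (loess), scipy 1.17.1 and, for figures, matplotlib 3.10.9.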

Additional observations from a re-analysis of the deposited data

How the results depend on the processing

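Quantile normalization, division by each array's median, removal of the loess trend, other pseudocounts, other brightness minimums, a 1.5-fold rule and removal of shared probe sets were tried, and the plain signal ratio was added after seeing the data. Only the 3 scalings could change a sign, and all 7 members kept theirs under them. Of 57 values of single members, 15 could not move by construction, those of the brightness minimums and of the shared probe sets. Of the other 42, 34 moved by less than the spread among genes and 8 by more. These 8 were GH3.1 (-2.655 with a pseudocount of 1 and -3.16 by the plain ratio), IAA29 (-1.43 and -1.48), YUC4 (1.14 and 1.17) and YUC6 (-1.46 and -1.57), all dim, where a smaller pseudocount by construction gives larger ratios. The count of 0 members at least 2-fold lower became 1, GH3.3, with quantile normalization, median scaling, the loess removal, a pseudocount of 1 and the plain ratio, and 2 at 1.5-fold. The same counts, 1 and 2, held for all auxin lists, of 8 measured loci. Over all 11308 measured probe sets, the 270 lower became 271 with quantile normalization, 275 with loess removal and 346 with a pseudocount of 1. Median scaling gave 289 lower of 11315, and the plain ratio 349 of 11308, or 3.09%. At 1.5-fold, 776 were lower and 767 higher of 11308, against 270 and 136 at 2-fold. A minimum of 100% of the trimmed mean left 178 lower and 83 higher of 6938. The higher count was 209 with a pseudocount of 1, 75 with 25% of the trimmed mean and 211 by the plain ratio. At the minimum of 100% only WES1 was left of the members. The median of -0.34 over the 8 measured auxin genes was -0.15 over 32 loci with no brightness minimum. The medians over all probe sets at these 2 settings were 0.013 and -0.001. No paired analysis was possible because there was only 1 array of each genotype. Signal over background limits the 5 dim members.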

Other observations

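The protein-coding genes on either side of each member were looked up, 2 on each side. A named probe set was found for 13 of these 28 places, and 8 were measured, with log2 ratios between -0.66 and 0.98 and 0 past the 2-fold rule, against 2.39% lower and 1.20% higher over all measured probe sets. The gene next to GH3.1, AT2G15000, had 898.8 in GFP-TIE1-15 and 431.1 in wild type, the highest ratio among the 8, and its plain signal ratio of 2.085 was past 2-fold. Of the 4 genes around WES1, AT4G27280, the second gene after it, had 798.3 in GFP-TIE1-15 and 1289 in wild type, a log2 ratio of -0.66. AT4G27240, the second gene before it, had 196.8 in GFP-TIE1-15 and 208.2 in wild type, a log2 ratio of -0.065. The genes directly beside WES1 were dim, with AT4G27250 at 21.3 in GFP-TIE1-15 and 21.1 in wild type, and AT4G27270 at 170.7 in GFP-TIE1-15 and 162.3 in wild type.

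A search of gene synonyms, made after the values were seen, added 2 SAUR genes to the list, and both were dim. SAUR57 (AT3G53250) had 38 in GFP-TIE1-15 and 10.3 in wild type, and SAUR58 (AT1G43040) had 3.8 in GFP-TIE1-15 and 2.3 in wild type.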
